A study of Mus musculus with 6 samples.

Results

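The 41 genes described here encode ephrins, their Eph receptors, class 3, 5 and 6 semaphorins, and the neuropilins and plexins that receive semaphorins. Their open chromatin was followed in face tissue of mouse embryos. Peaks of all 6 libraries that overlapped by at least 1 bp were merged into 382006 regions. A region was given to a gene if its strongest summit lay nearest to a protein-coding start of that gene, at most 100 kb away. In this way 1295 regions of 245066 near any protein-coding gene belonged to the 41 genes, 103 of them promoter regions within 1 kb of a start and 1192 distal. All 41 genes had a start in the annotation and at least 1 region. The assignment is by distance alone, so the gene that a region acts on is not known.

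Bulk ATAC-seq, a method that uses Tn5 transposase to cut accessible DNA, was run on freshly dissected tissue at E11.5. The embryos are labelled WT and the cells mixed. There were 2 libraries each labelled nose, maxillary process (the upper jaw) and mandibular process (the lower jaw), and the question is where open regions of guidance genes differ among them. Whether the 2 libraries of a label stem from separate embryos is not stated, so p-values measure only the spread between these libraries, which may be technical. In bulk tissue, fewer cells with an open region and less accessibility per cell cannot be told apart.

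For all 4 jaw libraries, the name of the deposited list points to the opposite jaw from the sample label. Groups follow the labels, and "maxillary" and "mandibular" mean the libraries so labelled. Genes known from one part of the face gave counts in both directions. Hand2, a gene of the mandibular process, had 4 regions found with both maxillary libraries and neither mandibular one, and 0 of the reverse. Alx1 and Alx4, genes of the upper face, had 0 such regions each and 7 and 5 of the reverse. These 3 genes go against the labels. Dlx5, another gene of the mandibular process, had 0 and 2 and goes with them. The counts were 2 and 3 for Dlx6, 4 and 3 for Pou3f3, a gene of the upper jaw, and 0 and 0 for Hand1. Over all regions near coding genes, 3.26% were found with both maxillary libraries and neither mandibular one, and 5.0% were the reverse. The lists were of unequal length, and the shortest was of a library labelled maxillary process. The contrast of nose with both jaws does not depend on which jaw is which. The direction of every difference between the jaws turns round if the file names are right and the labels are not.

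Ephrins are ligands held in the membrane, ephrin-A by a lipid anchor and ephrin-B by a transmembrane stretch. They bind Eph receptor tyrosine kinases on neighbouring cells, signals run in both cells, and cells that meet in this way often sort apart or retract. Class 3 semaphorins are secreted and mostly bind a neuropilin, which signals through a plexin, whereas class 5 and 6 semaphorins stay in the membrane. Both systems steer the cranial neural crest and the axons of the cranial nerves. In humans, EFNB1 is mutated in craniofrontonasal syndrome, in which the midface and skull are malformed.

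The sequences of 10 distal regions are shown first, 9 as examples of the differences between labels described further on and 1 as a region that was high in every library. Each is a window of 151 bases centred on the strongest summit, given 5′ to 3′ on the + strand of GRCm38/mm10. A region is named by its gene and by the distance of its summit from the nearest start, positive downstream. A negative distance can lie within a longer transcript of the same gene. The first 4 are the regions whose height differed between labels at the smallest adjusted p-values, and the last of these passed the threshold in both contrasts. The next 5 were called in libraries of 1 label or of both jaws, or were missing from 1 jaw label, and the last was the highest ranked distal region over all libraries. Capitals mark matches, on either strand, to the 10 short motifs searched.
Epha5 +51.3 kb, chr5:84365456-84365606: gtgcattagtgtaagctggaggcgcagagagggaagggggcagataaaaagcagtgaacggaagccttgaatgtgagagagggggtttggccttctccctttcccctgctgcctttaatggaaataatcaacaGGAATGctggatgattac
Sema3d +58.5 kb, chr5:12441903-12442053: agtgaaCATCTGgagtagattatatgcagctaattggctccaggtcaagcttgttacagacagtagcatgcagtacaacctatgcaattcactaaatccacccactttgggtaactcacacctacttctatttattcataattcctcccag
Sema6d +87.3 kb, chr2:124740850-124741000: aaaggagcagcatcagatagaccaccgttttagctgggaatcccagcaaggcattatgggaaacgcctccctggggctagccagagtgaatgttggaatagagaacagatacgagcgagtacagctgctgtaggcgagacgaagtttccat
Sema3a −69.3 kb, chr5:13327431-13327581: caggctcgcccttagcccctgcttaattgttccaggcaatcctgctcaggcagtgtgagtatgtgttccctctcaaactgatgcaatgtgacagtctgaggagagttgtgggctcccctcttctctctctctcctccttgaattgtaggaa
Sema3d +43.6 kb, chr5:12426983-12427133: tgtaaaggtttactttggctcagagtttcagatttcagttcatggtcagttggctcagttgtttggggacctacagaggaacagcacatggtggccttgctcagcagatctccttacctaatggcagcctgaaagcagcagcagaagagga
Efnb2 +82.9 kb, chr8:8578277-8578427: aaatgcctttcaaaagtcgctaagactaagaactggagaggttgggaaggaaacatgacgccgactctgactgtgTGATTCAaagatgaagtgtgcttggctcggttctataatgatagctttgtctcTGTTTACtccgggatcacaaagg
Sema3a −44.9 kb, chr5:13351822-13351972: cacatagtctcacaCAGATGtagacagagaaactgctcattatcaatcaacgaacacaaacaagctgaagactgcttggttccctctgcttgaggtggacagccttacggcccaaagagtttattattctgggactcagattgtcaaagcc
Plxna2 +67.0 kb, chr1:194686714-194686864: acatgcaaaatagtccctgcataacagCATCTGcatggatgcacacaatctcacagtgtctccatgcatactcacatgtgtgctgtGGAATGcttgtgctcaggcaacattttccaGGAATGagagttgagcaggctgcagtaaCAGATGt
Epha4 +75.5 kb, chr1:77439497-77439647: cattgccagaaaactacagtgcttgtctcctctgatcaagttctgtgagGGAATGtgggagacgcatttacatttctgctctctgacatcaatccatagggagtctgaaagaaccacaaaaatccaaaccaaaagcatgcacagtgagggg
Epha7 −29.0 kb, chr4:28784060-28784210: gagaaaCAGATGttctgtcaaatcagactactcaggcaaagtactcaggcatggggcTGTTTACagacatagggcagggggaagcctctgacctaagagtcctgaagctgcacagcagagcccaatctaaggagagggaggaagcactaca
The windows carry few motif matches. Sema3d +58.5 and Sema3a −44.9 each held 1 Twist-type E-box (CATCTG), Epha5 +51.3 and Epha4 +75.5 each held 1 Tead match (CATTCC), and Plxna2 +67.0 held 4 matches to these motifs. Efnb2 +82.9 held a forkhead (TGTTTAC) and an AP-1 match (TGANTCA), and Epha7 −29.0 held an E-box and a forkhead match. Sema6d +87.3, Sema3a −69.3 and Sema3d +43.6 held none of the motifs. A match is a description of the letters and not evidence that a factor binds there.

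The length of the deposited lists limits the comparison of libraries. They held between 219779 summits in maxillary process replicate 1 and 299731 in mandibular process replicate 1. Lists began at a −log10 q of 1.3, except that of maxillary process replicate 2 at 2.55 and that of mandibular process replicate 1 at 1.62, so a missing peak may lie below a higher limit in those. The depth in reads is unknown. Heights are the deposited fold over local background at the highest summit of a region in each library. Low heights came in steps: the commonest value was held by 6.77% to 13.1% of the summits of a list. The guidance genes had 642 and 680 regions in the nose libraries, 512 and 607 in those labelled maxillary process, and 624 and 596 in those labelled mandibular process. As a share of all regions near coding genes this was 0.552% and 0.544%, 0.525% and 0.514%, and 0.494% and 0.501%. The shares fell in separate ranges for the labels, highest in nose. With 2 libraries against 4, an exact permutation test over libraries cannot go below p = 0.0667, and with 2 against 2 not below 0.333, so the presence of peaks was counted and not tested.

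Promoters of the guidance genes were open throughout the face. A promoter region was called in all 6 libraries for 38 of the 41 genes (92.7%), against 61.3% of all 21827 protein-coding genes. The exceptions were Epha8, Sema3b and Epha6. Epha8, an Eph receptor for ephrin-A ligands, had no peak at its start in either nose library. Its heights there were 4.23 and 7.11 in the libraries labelled maxillary process and 4.28 and 3.34 in those labelled mandibular process. Its promoter was thus called in every jaw library and in no nose library. Counted from the top of their lists, 7.11 stood at 29.0%, 4.23 and 4.28 at 62.9 and 61.4%, and 3.34 at 89.0%. All but the first of these were low, and a missing nose peak is not the absence of open chromatin. Sema3b, a secreted semaphorin, had 3 promoter regions at separate starts. The most widely called had heights of 3.35 and 3.67 in nose, 4.13 in maxillary process replicate 2 and 3.05 in mandibular process replicate 1, with no peak in the other 2 libraries. All of its promoter heights were low. Both nose libraries held it, as did 1 library of each jaw label. Epha6, another EphA receptor, had a region in all 6 libraries with its summit at −1.23 kb, just outside the 1 kb limit, in an intron of the noncoding gene Gm9017. Its heights were 9.97 and 9.66 in nose, 9.37 and 8.73 in maxillary process and 9.33 and 8.91 in mandibular process, and it did not pass the test of heights described further on. With a limit of 2.5 kb, or any region within 500 bp of a start, 39 of 41 promoters were called in every library.

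The most highly ranked promoters were those of Ephb6, an Eph receptor that lacks kinase activity, Epha7, a receptor for ephrin-A ligands, and Sema6c, a membrane semaphorin. Ephb6 had heights of 10.9 and 9.67 in nose, 12.7 and 9.99 in maxillary process and 9.83 and 9.76 in mandibular process. Sema6c had 13.7 and 14.0 in nose, 11.8 and 11.1 in maxillary process and 14.1 and 13.0 in mandibular process. All 6 libraries ranked both near the top of their lists, and neither passed the test of heights. The promoter of Efnb1 was likewise open in every library. Its heights were 9.73 and 10.4 in nose, 9.47 and 8.18 in maxillary process and 9.58 and 9.97 in mandibular process. The groups overlapped for nose and mandibular process, and the lowest value was in a library labelled maxillary process.

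The genes differed widely in how many regions surrounded them. The median was 30 regions per guidance gene against 5 over all protein-coding genes. The stretch of genome nearest to a gene within the limit had a median of 132 kb for guidance genes and 47.4 kb for all genes. Per 100 kb of that stretch, guidance genes had a median of 27.2 regions against 14.1. Sema6d, a transmembrane semaphorin, had the most regions of all, 95, with 21 called in every library and 43 in 1 library alone. Plxna3, a plexin that receives class 3 semaphorins through neuropilins, had the fewest, its promoter alone.

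Among the ligands, Efna5 had the most regions (58) and Efna2 the fewest (5) of the ephrin-A genes. Efnb2 led the ephrin-B genes with 43, followed by Efnb1 with 30 and Efnb3 with 5. Among the receptors, Epha7 had 47 and Epha1 had 11 regions, and Ephb3 had 38 and Ephb6 had 10. Among the semaphorins, Sema3a had 70 and Sema3b had 7 regions in class 3, and Sema6d had 95 and Sema6c had 8 in classes 5 and 6. Outside the neuropilins, the gene with the fewest regions in each role had at most 57.2 kb of genome nearest to it, and the gene with the most had at least 115 kb. Nrp2 had 65 regions and Nrp1 50, and Plxna2 had 56, the most of the plexins. The share of regions called in every library ran from 15.1% for EphA receptors to 29.0% for ephrin-A ligands, and the groups with few genes rest on few regions.

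**Figure D1:**
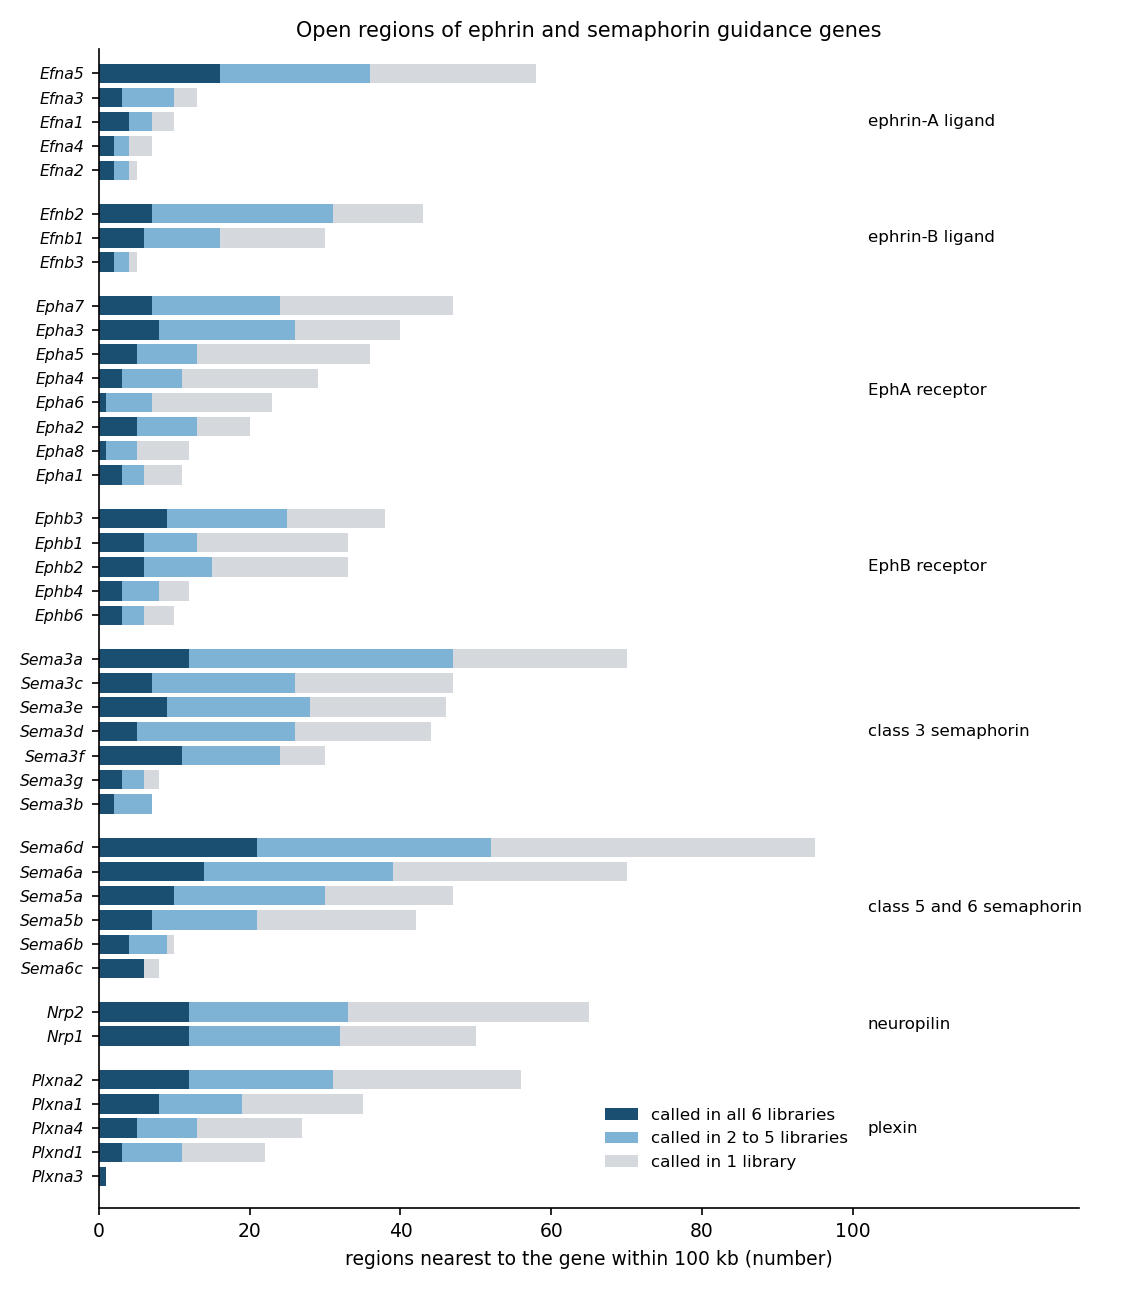
Number of regions nearest to each gene within 100 kb (horizontal axis) for the 41 guidance genes (vertical axis), grouped by role. Dark blue is called in all 6 libraries, light blue in 2 to 5 and grey in 1. Sema6d has 95 regions and Plxna3 has 1, and grey makes up 550 of the 1295 regions.

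Of the 1295 regions, 266 (20.5%) were called in every library, against a background of 21.7% over all 245066 regions near coding genes. A single library held 550 (42.5%, against 41.6%). For most patterns of presence the guidance genes lay close to the background. Regions called in both nose libraries and no jaw library numbered 44 (3.40%), against 2.73% of all regions. Those called in all 4 jaw libraries and no nose library numbered 12 (0.927%), against 0.878%. Between the jaws, 45 (3.47%) were held by both maxillary and by neither mandibular library, against 3.26%, and 55 (4.25%) showed the reverse, against 5.0%. Regions of 1 jaw label and no other library numbered 18 for maxillary process (1.39%, against 1.76%) and 28 for mandibular process (2.16%, against 2.54%). The order of the jaws differed between settings. With the best 219779 summits of each list, 58 regions (6.25%) were held by both maxillary and by neither mandibular library, against 4.94% of all regions, and 31 (3.34%) showed the reverse, against 4.10%. Nose regions were then 41 (4.42%), against 2.68%. When a peak had to cover at least 50% or 200 bp of a region, 57 regions (4.40%, against 3.45%) were maxillary over mandibular and 50 (3.86%, against 4.79%) the reverse. Summits with −log10 q of at least 3 gave 36 (4.57%, against 3.34%) and 25 (3.17%, against 3.37%). Those of at least 5 gave 20 (4.12%, against 2.81%) and 26 (5.35%, against 3.93%). Which jaw had more regions thus turned with the limit, and at 5 the background leaned the same way. Leaving out 1 library of a label raises that label's count by construction, to 167 and 157 for nose without replicate 1 or 2.

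**Figure D2:**
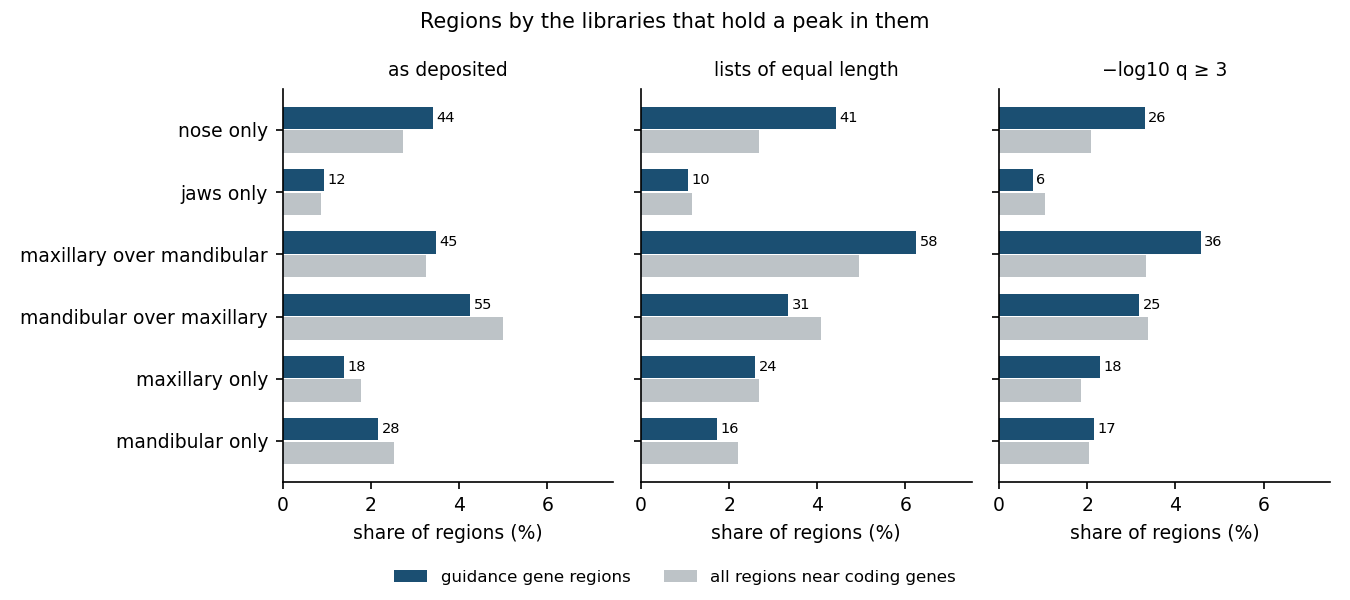
Share of regions (horizontal axis, percent) with each pattern of presence over the 6 libraries (vertical axis), for the lists as deposited, for lists cut to equal length and for summits with −log10 q of at least 3. Dark bars are regions of the 41 guidance genes, with their number, and grey bars all regions near coding genes. The jaw patterns change order between the first and second panels, from 45 and 55 regions to 58 and 31.

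Regions held by nose alone belonged to 23 genes. Epha3 (40 regions in all), a receptor for ephrin-A ligands, and Sema6d (95 in all) had the most, 4 each (background 2.73%). Those of Epha3 all lay upstream of the gene in intergenic DNA, between −82.6 and −61.2 kb, with mean heights from 3.50 to 5.30. Those of Sema6d were spread over its introns and the DNA beyond, at 9.95, 65.6, 82.7 and 91.5 kb, with mean heights from 3.66 to 4.01. The strongest by rank belonged to Sema3d, a secreted semaphorin. Sema3d +43.6 (chr5:12426716-12427307, in its own intron) had heights of 7.88 and 7.69 in nose and no peak in any jaw library. Sema3d +84.7, also intronic, had 6.31 and 8.15 in nose and none in the jaws. Efnb2 encodes an ephrin-B ligand that marks arteries and is also made in neural crest. Efnb2 +82.9 (chr8:8577918-8578622), in an intron of the noncoding gene Gm31463, had 6.62 and 5.94 in nose and none in the jaws. These heights stand at the 17.5 to 28.9% of their lists counted from the top, well above the weakest summits.

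Regions held by all jaw libraries and not by nose belonged to 9 genes. Sema3a, a secreted repellent of sensory axons with 70 regions in all, had 3 of the 12 (background 0.878%). All 3 lay in its own introns. Sema3a −44.9 (chr5:13351740-13352033) had heights of 7.08 and 7.53 in maxillary process and 4.25 and 4.75 in mandibular process. Sema3a +91.5 had 3.90 and 5.60 in maxillary process and 6.66 and 6.31 in mandibular process. The first was higher in the libraries labelled maxillary process and the second in those labelled mandibular process, neither with overlap between these labels. Sema3c, a secreted semaphorin known from the outflow tract of the heart, had 1, at −36.7 kb in intergenic DNA, with heights from 4.23 to 4.74 in the 4 jaw libraries. The promoter of Epha8, given above, was another.

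Between the jaw labels, Efnb2, Sema3a, Sema3c and Sema6a, with 43, 70, 47 and 70 regions in all, led 1 direction. Each had 4 regions held by both maxillary and by neither mandibular library, the most of any guidance gene. The 3 ephrin-B genes together had 8 such regions and 1 of the reverse among 78 regions (backgrounds 3.26% and 5.0%), and with lists of equal length 9 and 1 (backgrounds 4.94% and 4.10%). This group was singled out after its values were seen and has no test, and with 1 library left out the counts ranged from 8 to 14 and from 1 to 8. The 4 of Efnb2 all lay downstream, from 58.8 to 99.1 kb. Efnb2 +95.9 was the strongest, with heights of 5.27 and 8.69 in maxillary process and no peak in nose or mandibular process. Efnb1 had 3, a promoter region at 0.672 kb within its UTR and regions at 20.7 and 91.6 kb. The promoter region was low, with 2.72 in nose replicate 2 and 3.15 and 3.01 in maxillary process. Another region of the same promoter, at 0.263 kb, was called in both mandibular libraries, with 3.68 and 2.98. It was also called in both nose libraries and in maxillary process replicate 2. Efnb1 +20.7 had heights of 5.26 and 4.67 in nose and 3.57 and 5.92 in maxillary process, and none in mandibular process, so nose and maxillary process overlapped. Efnb3 encodes an ephrin-B ligand known as a barrier to axons at the spinal midline. Efnb3 −1.4 (chr11:69561359-69561719) had 3.58 and 3.94 in nose, 6.52 and 4.78 in maxillary process and none in mandibular process. The ephrin-B counts were 3 and 0 at −log10 q of at least 3 (backgrounds 3.34% and 3.37%) and 1 and 0 at 5 (2.81% and 3.93%). They were 3 and 1 within 50 kb (3.02% and 4.83%) and 15 and 10 within 500 kb (3.50% and 5.31%). All ephrin-B regions were not counted at these settings, so no shares can be set beside these backgrounds.

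Outside the ephrin-B genes, the highest ranked of these regions were Epha5 +90.5 and Plxna2 +67.0, both intronic. Epha5, a receptor for ephrin-A ligands, had heights there of 7.39 and 8.76 in maxillary process, 3.36 in nose replicate 2, and no peak in the other libraries. Plxna2, a plexin that receives semaphorins of classes 3 and 6, had 7.57 and 6.46 in maxillary process at chr1:194686652-194687519, 3.15 in nose replicate 1, and none in the others. In both, the library labelled nose that held a peak had less than any library labelled maxillary process. Sema6a, a membrane semaphorin, had a region of the label maxillary process alone at 58.4 kb, with heights of 4.42 and 5.64, and Plxna2 another at 80.8 kb, with 5.11 and 4.36.

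Sema5a is a membrane semaphorin with thrombospondin repeats. In the opposite direction, it had the most regions held by both mandibular and by neither maxillary library, 5 of 47 (background 5.0%). Their mean heights were 2.94 to 4.14. The highest ranked of this kind were Epha2 −26.3, Epha4 +75.5 and Sema3a −12.0. Epha2, a receptor often found in epithelia, had 7.21 and 6.72 in mandibular process and 5.38 and 4.10 in nose. Epha4, a receptor that binds both ephrin classes, had 7.57 and 5.72 in mandibular process at chr1:77439455-77439939 and no peak in any other library. Sema3a −12.0 had 6.10 and 5.72 and none elsewhere. The regions of Epha4 and Sema3a were thus held by the label mandibular process alone, whereas that of Epha2 was shared with nose. Ephb4, the receptor of ephrin-B2 on veins, had a promoter region at −0.963 kb of this kind, with low heights of 3.32 and 3.68.

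**Figure D3:**
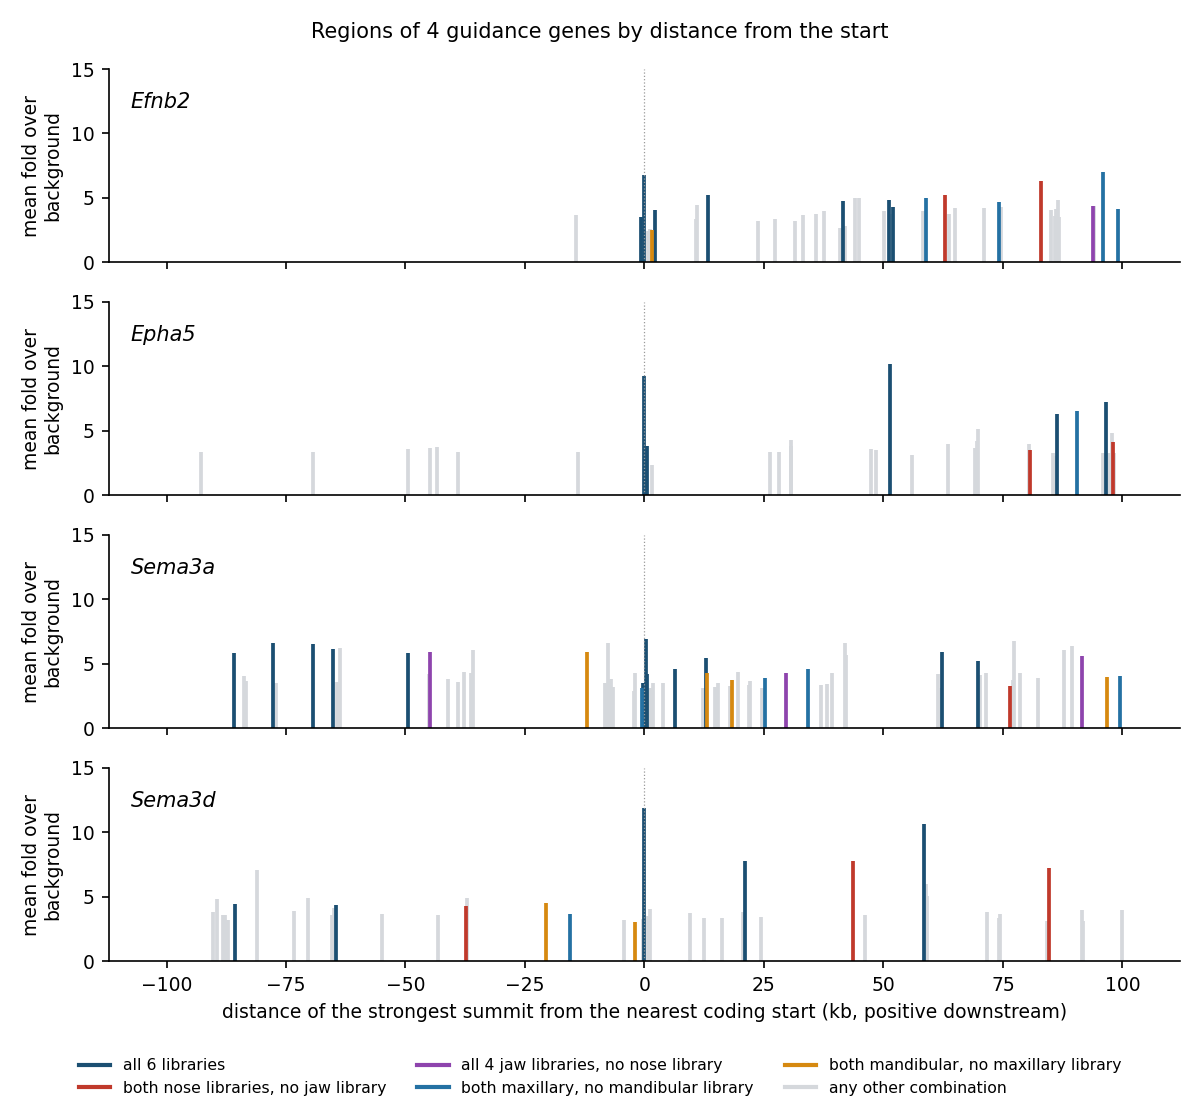
Mean height (vertical axis, fold over local background, mean over the libraries that hold the region) of each region of Efnb2, Epha5, Sema3a and Sema3d against its distance from the nearest coding start (horizontal axis, kb, positive downstream). Colours give the libraries that hold it. Regions of Efnb2 lie almost all downstream, Sema3d has tall regions of nose alone at 43.6 and 84.7 kb, and Sema3a has regions of every pattern.

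Heights could be compared where all 6 libraries had a peak, which held for 69940 regions, 266 of them of the guidance genes. The log2 heights were quantile-normalised, fitted with limma and adjusted by Benjamini-Hochberg over all 69940 regions, with a threshold of 0.05. For nose against both jaws, 3 guidance regions were higher (1.13%, background 1.26% of regions) and 2 lower (0.752%, background 1.62%). An unadjusted p under 0.05 was reached by 24 and 20 of them (9.02% and 7.52%, against 7.38% and 8.06% of all regions). For maxillary process against mandibular process, 6 were higher (2.26%, background 0.915%) and 3 lower (1.13%, background 0.885%), and 20 and 16 had an unadjusted p under 0.05 (7.52% and 6.02%, against 6.80% and 6.86%). By these shares, calls were below the background for nose and above it between the jaws, from few regions and with no test of the difference. That background also holds regions farther than 100 kb from any protein-coding start, unlike the guidance regions, so the sets are unlike. The median size of the log2 difference was 0.158 for nose and 0.178 between the jaws, against 0.166 and 0.181 over all regions. The 13 different regions past the threshold belonged to 10 genes, and all were distal. Among the 208 distal guidance regions, 5 (2.40%) passed for nose and 9 (4.33%) between the jaws, against 2.98% and 1.76% of all distal regions near coding genes. Of the 58 guidance promoters tested none passed in either contrast, by limma, where 0.384% and 0.113% of all promoters did, and 3 and 2 had an unadjusted p under 0.05. By role, regions past the threshold in either contrast numbered 5 of 49 tested for class 3 semaphorins and 3 of 33 for EphA receptors. They numbered 3 of 62 for class 5 and 6 semaphorins, 1 of 15 for ephrin-B ligands and 1 of 29 for plexins. Ephrin-A ligands, EphB receptors and neuropilins had none, of 27, 27 and 24 tested. Over all roles there were 13 of 266, and differences between roles were not tested.

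Epha5 +51.3 (chr5:84365143-84365849, intronic) was lower in nose. Its heights were 6.71 and 6.23 in nose, against 9.17 and 12.7 in maxillary process and 14.4 and 12.0 in mandibular process. All 4 jaw libraries lay above both nose libraries. The log2 difference was −0.89 ± 0.16 (SE), with an adjusted p from limma of 0.00195, and it passed the threshold with each library left out in turn, with adjusted p between 0.00656 and 0.0477. Sema3a −69.3 (chr5:13327312-13327772, intronic) was also lower in nose, with 3.87 and 4.13 in nose, against 8.71 and 12.6 in maxillary process and 5.19 and 4.77 in mandibular process. Nose lay below both jaws, but most of the height was in the libraries labelled maxillary process. The difference was −0.84 ± 0.22 (SE, limma adjusted p = 0.0269), and it missed the threshold without any 1 of the 6 libraries, with adjusted p from 0.0629 to 0.218.

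Of the regions higher in nose, Sema6d +87.3 (chr2:124740572-124741779, intergenic) had heights of 9.98 and 9.86 in nose, against 4.06 and 4.54 in maxillary process and 5.67 and 7.21 in mandibular process. The groups did not overlap, and the log2 difference was 0.95 ± 0.21 (SE, limma adjusted p = 0.0107). The call held without mandibular process replicate 2 (0.0172) and was lost without any other library (0.0558 to 0.144). Efnb2 +41.5, in a UTR of the gene, had 5.96 and 7.39 in nose, against 3.17 and 5.61 in maxillary process and 2.95 and 3.40 in mandibular process. Nose was above all jaw libraries, narrowly above maxillary process replicate 2. Its difference was 0.90 ± 0.22 (SE, limma adjusted p = 0.0181), and the call held without mandibular process replicate 2 or maxillary process replicate 2 (0.0335 and 0.0480), with 0.0683 to 0.205 without each of the others. Sema3e is a secreted semaphorin that binds Plxnd1 without a neuropilin. Sema3e −32.1, in intergenic DNA, had 8.41 and 8.15 in nose, against 3.62 and 4.74 in maxillary process and 6.18 and 4.77 in mandibular process. The 3.62 was the commonest value of its list, held by 13.1% of summits. The difference was 0.83 ± 0.22 (SE, limma adjusted p = 0.0305), lost without any 1 of the 6 libraries (0.0554 to 0.243).

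Between the jaws, Sema3d +58.5 (chr5:12441726-12442156, intronic) stood out. Its heights were 14.1 and 13.3 in the libraries labelled maxillary process, against 6.18 and 7.15 in those labelled mandibular process, with 12.3 and 11.0 in nose. It was thus high in nose as well and low in mandibular process alone. The log2 difference was 1.04 ± 0.18 (SE), with a limma adjusted p of 0.00145. Sema3a −69.3, given above, was higher too, by 1.11 ± 0.25 (SE, limma adjusted p = 0.0148), and was the 1 guidance region past the threshold in both contrasts. Sema3c +55.5 had 6.04 and 12.5 in maxillary process, against 5.23 and 3.34 in mandibular process, with a difference of 1.10 ± 0.29 (SE, limma adjusted p = 0.0383). The labels did not overlap, but the libraries labelled maxillary process were far apart. Sema5b +89.3, Sema6d +6.3 and Plxna2 −9.1 were higher by 0.99, 0.98 and 0.87 (limma adjusted p = 0.0302, 0.0438 and 0.0387). Sema5b, a membrane semaphorin, had 6.10 and 7.31 in maxillary process, against 3.33 and 3.34 in mandibular process. Both mandibular values were the commonest height of their list, held by 10.1% and 10.7% of its summits. They stood at the 91.8 and 89.0% of their lists counted from the top, among the weak summits. The 3.34 of Sema3c +55.5 was the same value of the same list.

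Epha5 +96.5, Sema3a +62.2 and Epha2 +31.2 were lower in the libraries labelled maxillary process. Epha5 +96.5, intronic, had 4.83 and 5.53 in maxillary process, against 10.9 and 9.84 in mandibular process, with 6.23 and 6.10 in nose. Sema3a +62.2, intronic, had 4.23 and 4.34 in maxillary process, against 7.73 and 10.2 in mandibular process, with 4.20 and 4.80 in nose. Epha2 +31.2, intergenic, had 4.23 and 5.13 in maxillary process, against 10.3 and 8.58 in mandibular process, with 5.26 and 3.84 in nose. In all 3 the libraries labelled mandibular process stood above the other 4 libraries. The log2 differences were −1.01 ± 0.23, −1.07 ± 0.26 and −1.03 ± 0.26 (SE), with limma adjusted p of 0.0162, 0.0227 and 0.0280. Within Sema3a, regions at −69.3 and 62.2 kb therefore differed in opposite directions, and so did Epha5 at 90.5 kb by presence and at 96.5 kb by height. The jaw calls rest on both libraries of each jaw label. All 9 held without either nose library. Without any 1 jaw library, Sema3d +58.5 alone passed, without mandibular process replicate 1 or 2 (0.0483 and 0.00778), and it had 0.106 and 0.0973 without maxillary process replicate 1 or 2. The other 8 had adjusted p of 0.0714 to 0.429.

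**Figure D4:**
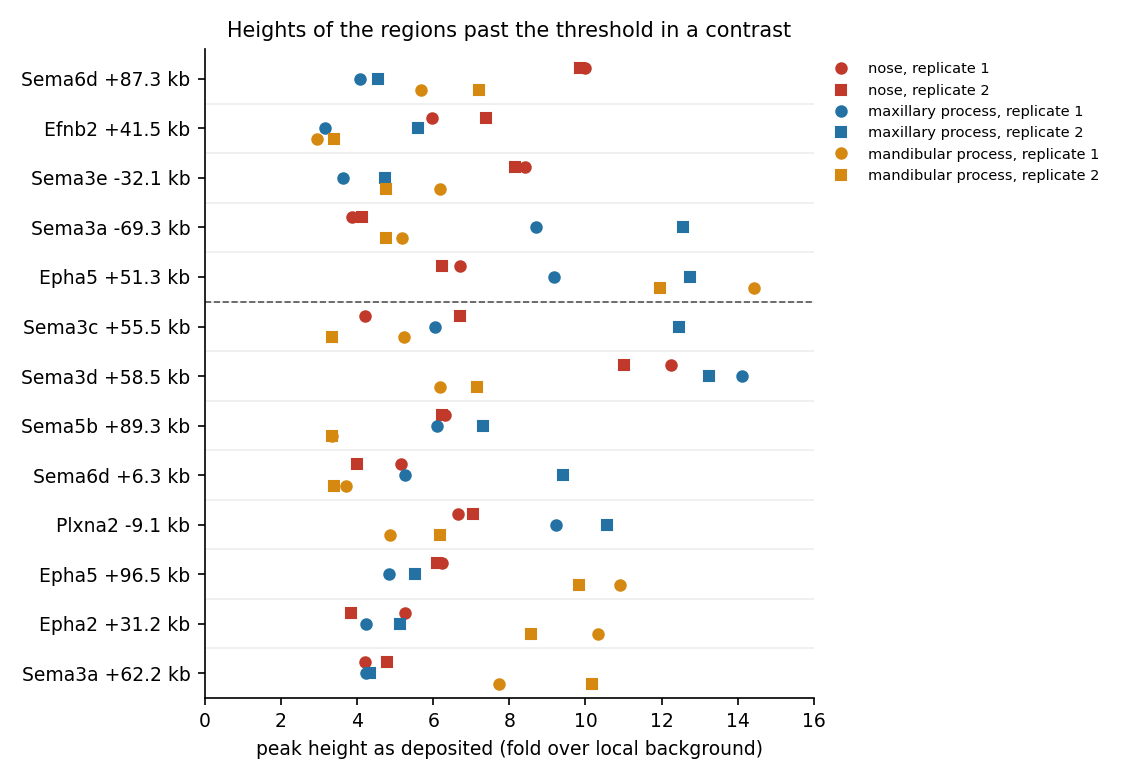
Deposited height (horizontal axis, fold over local background) in each of the 6 libraries for the 13 regions past the threshold, with the regions of the nose contrast above the dashed line. Red is nose, blue maxillary process and orange mandibular process, with circles for replicate 1 and squares for replicate 2. Epha5 +51.3 has 6.71 and 6.23 in nose and at least 9.17 in each jaw library.

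**Figure D5:**
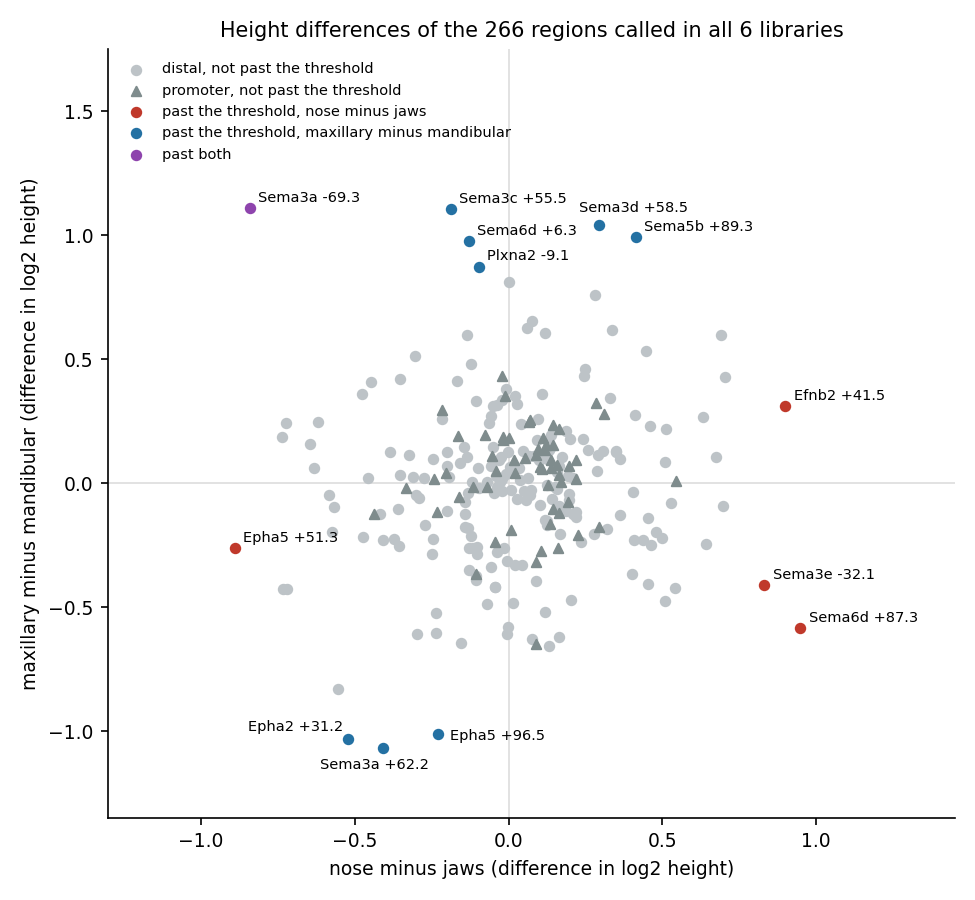
Difference in log2 height between maxillary and mandibular process (vertical axis) against that between nose and both jaws (horizontal axis) for the 266 guidance regions called in all libraries. Promoters are triangles, and coloured points passed the threshold. Only Sema3a −69.3 passed in both contrasts, at −0.84 and 1.11, and no triangle passed.

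The highest ranked distal regions were high in every library. Epha7 −29.0 (chr4:28783886-28784582, intergenic) had heights of 17.2 and 16.5 in nose, 15.9 and 14.2 in maxillary process and 16.2 and 14.6 in mandibular process. Plxna1 encodes a plexin for class 3 and 6 semaphorins. Plxna1 +12.6, in its own intron, had 13.7 and 14.3 in nose, 13.2 and 11.4 in maxillary process and 13.1 and 14.0 in mandibular process. Epha3 +7.0, also in its own intron, ranged from 11.0 to 11.7 over all 6. In each, the values of the jaw labels overlapped, and none of the 3 passed the test.

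Distal guidance regions lay in introns more often than regions elsewhere: 62.4% against 56.9% of all distal regions, and 57.6% in introns of the gene itself against 42.0%. Intergenic DNA held 33.8% against 37.0%. Median GC content within 100 bp of the summit was 47.3% for distal guidance regions and 47.8% for all, and 62.2% against 58.7% at promoters. Of the motifs searched within 100 bp of the summit on both strands, most were about as frequent as elsewhere. The E-box CATCTG was in 22.7% of distal guidance regions and 21.3% of all distal regions, and the AP-2 motif GCCNNNGGC in 6.80% and 6.35%. The homeodomain motif TAATTA was in 6.21% (74 of 1192), against 4.76%. The core of the CTCF motif was in 2.01% (24 of 1192), against 4.45%, and among regions called in every library in 5.77% against 10.9%. These are shares, with no test, and regions of 1 gene are not independent.

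Other guidance genes gave a frame for these counts. Netrins, Slits and their receptors (20 genes) had 578 regions with a median of 28 per gene, and 18 of 20 promoters were called in every library. The other semaphorins, plexins and Eph receptors (12 genes) had 180 regions with a median of 11, and 11 of 12 such promoters. Nose-only regions were 3.29% and 1.67% of the regions of these lists. Robo1 and Slit3, a receptor and a secreted ligand of the Slit system, had 68 and 72 regions. Plxnb3 had 0. At the limit of 100 kb, the 104 regions at 90 to 100 kb had a median of 2 libraries and 11 were called in every library, and the 85 regions just outside, at 100 to 110 kb, had a median of 1 and 10 were called in every library.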

How the data were processed

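Bulk ATAC-seq libraries of mouse face tissue at E11.5 (single-end reads of 50 bp, 2 libraries per label) were used as deposited peak lists, 1 per library. Bowtie2, SAMtools and the build mm10 appear in the submitters' processing notes, and the peak caller is not given in the sources used here. For each summit the authors deposited a score, a fold (a ratio over local background within the library), and the −log10 of a p-value and of a q-value. The score was not used.

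Peaks overlapping by 1 bp were merged, and each region's strongest summit, by rank of −log10 p within its list, was assigned to the nearest protein-coding start of GENCODE M21 (basic), up to 100 kb away. A start within 1 kb made a promoter. Coordinates and sequence are GRCm38/mm10. Heights, the highest deposited fold of a library in a region, were log2 transformed, quantile-normalised and fitted with limma 3.58.1 (R 4.3.3; trended prior, all 6 libraries, no replicate block), with Benjamini-Hochberg adjustment over 69940 regions and a threshold of 0.05; the fit was tested on simulated data. Presence was counted without a test. Motifs (10) were searched within 100 bp of summits. Python 3.11.15, pandas 2.3.3, pysam 0.24.0 and bedtools 2.31.1 were used.

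The genes and lists were chosen with earlier results of these data known. Genes and regions were named by rule: the fewest and most regions per role, promoters not called everywhere, Efnb1, regions past the threshold, and the member with most regions and the best ranked regions per pattern. Alternatives were other list lengths, −log10 q limits, distances, overlaps, height measures and each library left out.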

Additional observations from a re-analysis of the deposited data

How the results depend on the processing

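Presence counts scaled with the lists and the distance allowed. Of the 1295 guidance regions, 788 and 486 were left at −log10 q of at least 3 and 5, and 799 and 3078 were found within 50 and 500 kb. Regions called in every library numbered 169 and 117 at those −log10 q limits (21.4% and 24.1%, against 24.6% and 28.8% of all regions). They numbered 485 within 500 kb (15.8%, against 19.0%). When every region with a guidance start within 100 kb was taken, there were 443 (24.3%, against 21.7%). Nose-only regions numbered 26 and 21 at the −log10 q limits (3.30% and 4.32%, against 2.08% and 1.72%). Within 50 and 500 kb they numbered 21 and 126 (2.63% and 4.09%, against 2.56% and 3.08%). Jaws-only regions numbered 6 and 4 at the −log10 q limits (0.761% and 0.823%, against 1.04% and 1.13%). Within 50 and 500 kb they numbered 6 and 25 (0.751% and 0.812%, against 0.836% and 0.950%). When a peak had to cover at least 50% or 200 bp of a region, there were 6 (0.464%, against 0.921%). For maxillary over mandibular process there were 20 at −log10 q of at least 5 (4.12%, against 2.81%). Within 50 and 500 kb there were 20 and 123 (2.50% and 4.00%, against 3.02% and 3.50%). For mandibular over maxillary process there were 25 and 26 at the −log10 q limits (3.17% and 5.35%, against 3.37% and 3.93%). Within 50 and 500 kb there were 36 and 173 (4.51% and 5.62%, against 4.83% and 5.31%). Lists of equal length gave 31 (3.34%, against 4.10%). Regions of maxillary process alone numbered 29 with the cover rule (2.24%, against 2.10%). The numbers within 50 and 500 kb were 8 and 59 (1.001% and 1.92%, against 1.63% and 1.89%). Regions of mandibular process alone numbered 17 and 14 at the −log10 q limits (2.16% and 2.88%, against 2.03% and 2.62%). They numbered 86 within 500 kb (2.79%, against 2.76%) and 16 with lists of equal length (1.72%, against 2.19%). With 1 library left out, the ranges were 1210 to 1253 regions in all, 276 to 300 in every library, 51 to 167 nose only, 18 to 24 jaws only, 44 to 155 and 54 to 197 for the 2 directions between the jaws, and 22 to 97 and 32 to 139 for maxillary and mandibular process alone. The number of promoters called in every library moved between 38 and 39.

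For heights, counts of guidance regions higher and lower in nose were 5 and 7 with median scaling, 7 and 5 with the −log10 p as height, and 1 and 1 among the regions above the median height. Over all regions, higher and lower calls in nose numbered 1290 and 1539 with median scaling and 1476 and 1656 with the −log10 p. They numbered 292 and 594 above the median height. The main fit gave 879 and 1134, so calls over all regions rose with the first 2 settings as well. Between the jaws, 10 guidance regions were higher with the −log10 p, 2 higher and 1 lower above the median height, and 3 higher without a trend in the prior. Over all regions there were 1104 higher and 1155 lower with the −log10 p, 276 and 298 above the median height, and 368 and 318 without a trend. Without a trend, Plxna2 −9.1 (adjusted p from limma 0.0575), Sema6d +6.3 (0.0682) and Sema3c +55.5 (0.101) missed the threshold, and no called region changed direction under any of the alternatives run. With 1 library left out, guidance regions numbered 0 to 2 higher and 1 to 1 lower in nose, and 0 to 6 and 0 to 3 between the jaws. Over all regions the ranges were 105 to 502 and 183 to 627 in nose, and 0 to 592 and 0 to 574 between the jaws, with 0 without either library labelled maxillary process. Fewer libraries can lower such counts, and the cause of the differences between these fits was not tested.

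The deviations of same-numbered libraries from their label means correlated at 0.0646, 0.0311 and 0.00702 over regions. Whether replicate numbers pair the libraries is not stated, and these values do not settle it. With the replicate number as a block, 6 guidance regions were lower in nose. Over all regions, higher and lower calls in nose numbered 1235 and 1527, against 879 and 1134 without the block. Between the jaws they numbered 962 and 952, against 640 and 619. The causes of these shifts were not tested. The depth in reads is unknown, so the absence of a peak in a list is not the absence of open chromatin.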
